A study of Mus musculus with 21 samples.

Results

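Secondary follicles with several granulosa cell layers (multilayer secondary, MLS) were set against secondary follicles with a double granulosa layer (two-layer secondary, TLS). The arrays were chosen by the stage named in the sample titles, which gave 3 MLS and 3 TLS arrays, 6 of the 21 arrays in a series of 7 stages. MLS follicles measured 150 to 180 µm across and came from female CD1 mice, an outbred stock, on postnatal day 16. TLS follicles measured 100 to 130 µm and came from female CD1 mice on day 12. Both groups were isolated directly from the ovary, carried no transgene and received no treatment. Age and follicle size change together between the groups and cannot be told apart. Per the labels, follicles of a stage were pooled and 3 samples were collected from the pool, and nothing tells whether the 3 share animals. The p-values then reflect how these samples of a stage differed from each other, a spread that may be technical. RNA was amplified in 1 round and hybridised to Illumina mouse bead arrays, which read each transcript through a short probe. The comparison asks which transcripts change as a secondary follicle adds granulosa layers.

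A secondary follicle is a growing oocyte inside granulosa cells that divide and stack into layers, bounded by a basal lamina. The oocyte secretes the glycoproteins of the zona pellucida, the coat that separates it from the granulosa cells, and growth factors such as GDF9 and BMP15 that act on those cells. Granulosa cells make anti-Müllerian hormone, inhibin and activin subunits and the receptor for follicle-stimulating hormone. Outside the basal lamina, stromal cells are recruited as theca cells, which make androgen, and capillaries grow into the theca. A whole isolated follicle holds all of these compartments.

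Levels are log2 intensities after background correction and quantile normalisation, and a log2 difference is MLS minus TLS. A probe was detected where its signal exceeded the negative control beads of its array at a detection p under 0.05. Between 12639 and 13907 probes were detected on each of these 6 arrays. Markers of the oocyte (Gdf9, Bmp15, Zp1, Zp3) and of granulosa cells (Foxl2, Amh, Fshr, Inha, Kitl) were detected on all 6, while Zp2 was detected on none. TLS repeat 2, whose tissue is labelled as ovary where the others are labelled as follicle, stood apart from the rest of its stage. Its correlation across genes was 0.964 with TLS repeat 1 and 0.965 with TLS repeat 3, against 0.980 between those 2 arrays and 0.984 to 0.988 among the MLS arrays. The counts, the list medians and the calls lost without TLS repeat 2 are therefore given as well. Means of PRIMARY follicles (labelled day 10, 70 to 90 µm) and PREANTRAL follicles (labelled day 18, 200 to 300 µm) serve as outer stages. Both hold an array with conflicting labels. PRIMARY repeat 3 carries the stage tag of a day 3 ovary. PREANTRAL repeat 2 carries the source name, day (20) and size (400 to 600 µm) of an antral sample.

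MLS follicles differed from TLS follicles in a small part of the measured genes, about evenly in both directions. All 10 tested genes of oocyte growth and the zona were lower in MLS follicles, 4 of them past the test. All 10 theca genes and 13 of 14 endothelial genes were higher, with 2 and 1 past the test. Of 9921 genes tested, 285 passed an adjusted p under 0.05 in limma, or 2.87%. Of these, 154 rose in MLS (1.55% of the genes tested) and 131 fell (1.32%), and 140 of the 285 moved by at least 2-fold. At an unadjusted p under 0.05 there were 1655 genes. The split between rises and falls depended on scaling, with 54.0% of calls up after quantile normalisation and 71.0% of 183 calls up after scaling to the same median. Over all tested genes, 52.1% were higher in MLS and the median log2 difference was 0.02. Without TLS repeat 2, 225 of 9862 genes passed (2.28%), 125 up (1.27%) and 100 down (1.01%). Of the genes called with all arrays, 89 were also called up and 66 also called down without that array, and none turned direction. In a bulk sample of whole follicles, fewer cells of a type and less RNA per cell cannot be told apart.

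The number of calls depended on the stages that lent their spread and on single arrays. The test took its spread from 18 arrays of 6 stages. These were PRIMARY, TLS, MLS, PREANTRAL and the primordial follicle stages of postnatal day 3 (PMD3) and day 4 (PMD4). When the spread was taken from the MLS and TLS arrays alone, 10 genes passed, 4 up and 6 down. All 10 were among the 285. Sizes depended on background correction. The 24 largest changes were taken from genes called with and without TLS repeat 2 and detected on every array of the higher stage. Their median absolute log2 difference was 2.01 as reported, 1.31 without background correction and 0.87 in the authors' values. All 24 still passed in both, but 14 and 20 of them had folds smaller by over 1.5 times. Being called without TLS repeat 2 was a condition for choosing the 24, so that outcome was fixed in advance. Their log2 differences without that array lay within 0.43 of those with all arrays. Of all 285 calls, 89 rises and 66 falls were kept without it. Leaving out each of the 6 arrays in turn gave 87 to 450 calls, the fewest without MLS repeat 1 and the most without TLS repeat 1. In total 67 of the 285 calls, 42 up and 25 down, were kept whichever of the 6 arrays was left out. Among genes, the median SD between arrays was 0.21 in MLS and 0.31 in TLS.

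The largest rise was that of Pebp4, a member of the phosphatidylethanolamine-binding protein family. Its levels were 8.28, 8.85 and 7.84 in MLS repeats 1 to 3, against 4.55, 5.002 and 4.96 in TLS repeats 1 to 3. No TLS array detected it and every MLS array did, so the groups were far apart. Its rise was at least 9.24-fold on this background-corrected scale (adjusted p = 8.27e-07), where the bound sets each TLS array to the lowest level at which any probe was detected on that array. The log2 difference was 3.49 with all arrays and 3.55 without TLS repeat 2. It was 1.96 without background correction and 1.17 in the authors' values, so the bound holds for the corrected scale alone. Pebp4 stood at 7.08 ± 0.36 in PRIMARY follicles and at 8.01 ± 0.51 in PREANTRAL follicles, so that TLS was the low point of these 4 follicle stages (SD, n = 3). A second Pebp4 probe also rose, by 1.78 on the log2 scale. Spink2, which encodes a Kazal-type inhibitor of serine proteases, had the same kind of low point. It was at 5.73, 7.97 and 6.90 in MLS and at 4.39, 4.40 and 4.67 in TLS, where no array detected it. Its rise was at least 3.37-fold on the corrected scale (adjusted p = 0.00169), but 2.28-fold without background correction and 1.53-fold in the authors' values. Its PRIMARY level was 7.81 ± 0.27. Chmp1a, an ESCRT-III subunit that acts in membrane budding, was also undetected in TLS. It rose at least 2.45-fold on the corrected scale (adjusted p = 0.00137), but 1.84-fold without background correction and 1.34-fold in the authors' values.

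Msmo1, a methylsterol oxidase of cholesterol synthesis, rose 5.61-fold (adjusted p = 0.0107). Its levels were 8.26, 9.79 and 8.95 in MLS and 5.89, 6.89 and 6.75 in TLS. The lowest MLS array lay above the highest TLS array, but the call was lost without MLS repeat 2 (adjusted p = 0.0528). Slc38a5, a transporter of glutamine and other neutral amino acids, was at 11.91, 12.28 and 11.65 in MLS and at 10.53, 10.15 and 9.70 in TLS. It rose 3.54-fold (log2 difference 1.82 ± 0.22 SE, adjusted p = 0.000183, and 1.84 without TLS repeat 2) and did not overlap between the groups. Ank1, an ankyrin that ties membrane proteins to the spectrin skeleton, was at 8.75, 9.27 and 8.56 in MLS and at 6.76, 6.80 and 6.73 in TLS. The TLS arrays were within 0.1 of one another, and the rise of 4.28-fold (adjusted p = 2.55e-05, 4.33-fold without TLS repeat 2) was shared by both further Ank1 probes, at 1.39 and 1.49 on the log2 scale.

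Among the other large rises, Nrn1, which encodes the membrane-anchored protein neuritin, was 4.32-fold higher at 11.57 ± 0.17 in MLS against 9.46 ± 0.97 in TLS. Msc, a basic helix-loop-helix repressor, was 5.01-fold higher, and was detected on 2 of 3 TLS arrays. Lims2, a focal adhesion adaptor, rose 3.01-fold and Mgll, the lipase that cleaves monoacylglycerol, rose 2.97-fold, each with the same direction in its other probes. H2-T10, a non-classical MHC class I gene, was called higher (log2 difference 2.36, adjusted p = 0.00169), but it was detected on TLS repeat 1 alone of the TLS arrays. That array stood at 6.46 where repeats 2 and 3 were at 4.45, not above background, and without it the log2 difference was 3.06. Close relatives of H2-T10 may share its probe, so its identity is uncertain. Myocd, a coactivator of serum response factor in muscle, was at 9.46, 9.11 and 8.96 in MLS and at 6.88, 7.85 and 6.55 in TLS, a rise of 4.22-fold (adjusted p = 0.00089). The other Myocd probes were detected on at most 2 of the 6 arrays and differed by 0.07 and -0.03, so the rise rests on 1 probe. Each rise in this paragraph kept its call whichever of the 6 arrays was left out.

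The largest fall was that of Csrp1, a LIM-domain protein of the actin skeleton. It was at 5.09, 4.89 and 4.57 in MLS, where no array detected it, and at 9.63, 8.21 and 8.10 in TLS, where every array did. It was at least 11.8-fold lower in MLS on the background-corrected scale (adjusted p = 0.00137). The log2 difference was -3.80 with all arrays, -4.00 without TLS repeat 2, -2.23 without background correction and -1.39 in the authors' values. Csrp1 was back at 8.57 ± 0.30 in PREANTRAL follicles, so that MLS was a low point between 2 higher stages. In PRIMARY follicles its arrays spread from 4.47 to 7.32. Btn1a1, known for its part in the secretion of milk fat, was at 5.69, 6.02 and 4.37 in MLS and at 8.26, 7.97 and 8.65 in TLS. It fell by 2.93 on the log2 scale (adjusted p = 0.00089), with MLS repeat 3 not above background, and was at 8.29 ± 0.65 in PRIMARY and 5.92 ± 0.49 in PREANTRAL follicles.

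Pnliprp2, a lipase related to pancreatic lipase, was lower by a log2 difference of -2.38 (adjusted p = 7.34e-05) and detected on 2 of 3 MLS arrays, and its other probe fell too, by 1.63 on the log2 scale. Rhox8, a homeobox gene of the X-linked reproductive cluster, was at 6.47, 6.33 and 6.40 in MLS and at 7.80, 8.27 and 8.20 in TLS. The groups were tight and apart, with a fall of 3.22-fold (adjusted p = 2.43e-05), and of 3.02-fold without TLS repeat 2. Ccng2, an atypical cyclin linked to cell cycle arrest, was at 5.71, 5.58 and 5.39 in MLS and at 6.90, 7.23 and 7.48 in TLS. It was 3.13-fold lower (adjusted p = 0.000545), and its levels in PRIMARY (5.16 ± 0.27) and PREANTRAL follicles (5.18 ± 0.44) were below both, so that its highest level among the 4 follicle stages was in TLS. Mtus2, a microtubule-associated protein, was 3.51-fold lower. Ipcef1, a partner of cytohesin exchange factors, was lower by a log2 difference of -1.83 and detected on 2 of 3 MLS arrays. Syt9, a calcium sensor of vesicle release, was 3.08-fold lower. Cdo1, which starts the breakdown of cysteine, was 2.99-fold lower, and Gstm6, a glutathione transferase, 2.75-fold lower. Gstm6 belongs to a family of near relatives that may share its probes. All of the falls named so far kept their call without any one of the 6 arrays. Csrnp1, a nuclear protein of the early response to signals, was 4.25-fold lower but overlapped between groups, and its log2 difference of -2.09 became -2.78 without MLS repeat 2. It was at 7.28, 9.47 and 7.48 in MLS and at 10.39, 9.33 and 10.78 in TLS, and its call was lost without MLS repeat 1 (adjusted p = 0.127), MLS repeat 3 (0.0828) or TLS repeat 3 (0.0876).

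**Figure D1:**
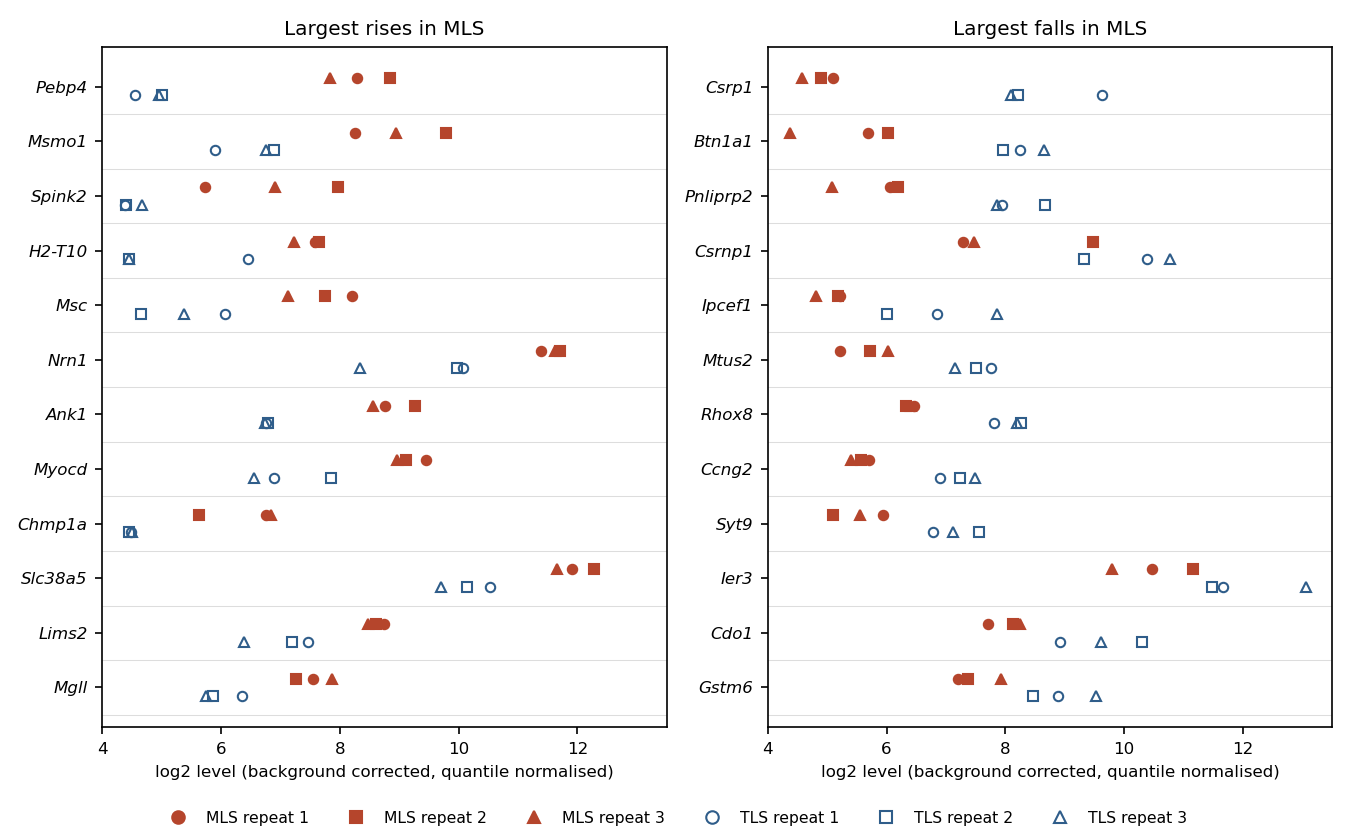
Log2 levels of the 12 genes with the largest rise and the 12 with the largest fall in MLS, each point 1 array. MLS arrays are filled and TLS arrays open. The genes were taken from those called with and without TLS repeat 2 and detected on every array of the higher stage. In 23 of the 24 genes the 3 MLS arrays lie clear of the 3 TLS arrays, and Csrnp1 overlaps through MLS repeat 2. Such separation is usual for called genes, since 275 of all 285 calls did not overlap.

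Oocyte transcripts were lower in MLS follicles. Among 10 tested genes of oocyte growth and the zona pellucida, all 10 were lower in MLS and 4 fell past the threshold, namely Zp1, Zp3, H1f8 and Fgf8, against 1.32% of all genes tested. Under scaling to the same median none of the 4 passed (adjusted p = 0.134 for Zp1, 0.197 for Zp3, 0.291 for H1f8 and 0.0764 for Fgf8) and the list median was -0.31. With quantile normalisation the median log2 difference of the list was -0.49, beside 0.02 over all genes, and 7 of the 10 did not overlap between groups, against 16.9% of all genes tested (7.76% with MLS below TLS). Zp3, a structural protein of the zona filaments, was at 11.44, 11.88 and 12.04 in MLS and at 12.50, 12.56 and 12.94 in TLS. The groups were apart, with Zp3 1.84-fold lower in MLS (log2 difference -0.88 ± 0.20 SE, adjusted p = 0.0259). Zp1, which cross-links the zona filaments, was at 10.32, 10.37 and 10.69 in MLS and at 11.02, 11.40 and 11.86 in TLS. It was 1.95-fold lower without overlap (adjusted p = 0.0221). H1f8, the oocyte linker histone, was at 11.31, 11.50 and 11.70 in MLS and at 12.19, 12.24 and 12.14 in TLS, 1.61-fold lower without overlap (adjusted p = 0.0196). Fgf8, a growth factor that the oocyte sends to granulosa cells, was at 9.34, 8.75 and 9.50 in MLS and at 9.81, 10.69 and 10.43 in TLS. It was 2.17-fold lower (adjusted p = 0.0264).

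The 2 growth factors that act on granulosa cells did not pass. Gdf9 averaged 14.08 ± 0.14 in MLS and 14.34 ± 0.26 in TLS (adjusted p = 0.452). Bmp15 averaged 12.71 ± 0.31 in MLS and 13.13 ± 0.19 in TLS (adjusted p = 0.383, SD, n = 3 each). Of 13 maternal effect genes, whose products the egg stores for the embryo, 12 were lower. Against 1.32% of all genes tested that fell, 1 passed, namely Npm2. This histone chaperone was at 9.79, 10.20 and 10.49 in MLS and at 10.66, 10.73 and 11.07 in TLS, 1.58-fold lower (adjusted p = 0.0487, and 0.299 under scaling to the same median). The list had a median of -0.48. Among 9 early germ cell regulators none passed and the median was -0.29. Dazl, an RNA-binding protein of germ cells, moved most in that list, at 8.68 ± 0.41 in MLS against 9.58 ± 0.50 in TLS (adjusted p = 0.21).

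Without TLS repeat 2 the medians of these 3 lists were -0.48, -0.58 and -0.52. Zp1, Zp3 and H1f8 still passed, Fgf8 (adjusted p = 0.0865) and Npm2 (0.0649) did not, and Khdc3, a member of the subcortical maternal complex noticed only in that fit, fell by 1.28 on the log2 scale (adjusted p = 0.025). Without MLS repeat 1, the adjusted p was 0.141 for Zp3, 0.102 for Zp1, 0.103 for H1f8, 0.0719 for Fgf8 and 0.252 for Npm2. Without TLS repeat 3 it was 0.0971 for Zp3, 0.0901 for Zp1, 0.0786 for Fgf8 and 0.164 for Npm2. Without MLS repeat 2 it was 0.0675 for Zp1, 0.11 for Fgf8 and 0.0964 for Npm2. These genes run steeply over the follicle stages. Zp3 stood at 13.29 in PRIMARY, 12.67 in TLS, 11.79 in MLS and 9.91 in PREANTRAL follicles, and Zp1 at 12.09, 11.43, 10.46 and 8.42 in the same order.

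Zona genes are known targets of the oocyte factor FIGLA, which binds E-box motifs (CANNTG) with its partner. Of the 5 oocyte genes that fell, 2 were found in the RefSeq promoter table, and the 250 bases before their start sites are printed to show where E-box letters lie in oocyte promoters that fell together. Capitals mark each CANNTG, a motif that is its own reverse complement, so both strands are covered, and no 2 of the marked motifs overlap.
Zp3: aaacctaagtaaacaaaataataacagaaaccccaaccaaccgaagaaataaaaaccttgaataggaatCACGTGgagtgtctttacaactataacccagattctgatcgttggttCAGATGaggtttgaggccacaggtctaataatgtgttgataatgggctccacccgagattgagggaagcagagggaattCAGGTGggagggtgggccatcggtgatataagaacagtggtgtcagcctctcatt
H1f8: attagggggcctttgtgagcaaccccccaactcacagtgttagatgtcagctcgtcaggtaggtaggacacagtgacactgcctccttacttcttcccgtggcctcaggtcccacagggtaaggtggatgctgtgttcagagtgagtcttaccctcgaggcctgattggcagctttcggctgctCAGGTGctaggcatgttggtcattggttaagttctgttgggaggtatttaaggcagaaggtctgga
The Zp3 window is chr5:135979855-135980104 and the H1f8 window chr6:115944681-115944930, both on the plus strand of GRCm38.p6. Zp3 holds 3 such motifs, which begin 181, 134 and 55 bases before the start site, and H1f8 holds 1, at 66 bases. A CANNTG was present in 59.4% of the windows of tested genes and CAGGTG or its reverse complement in 16.6%, so its presence alone sets neither promoter apart.

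**Figure D2:**
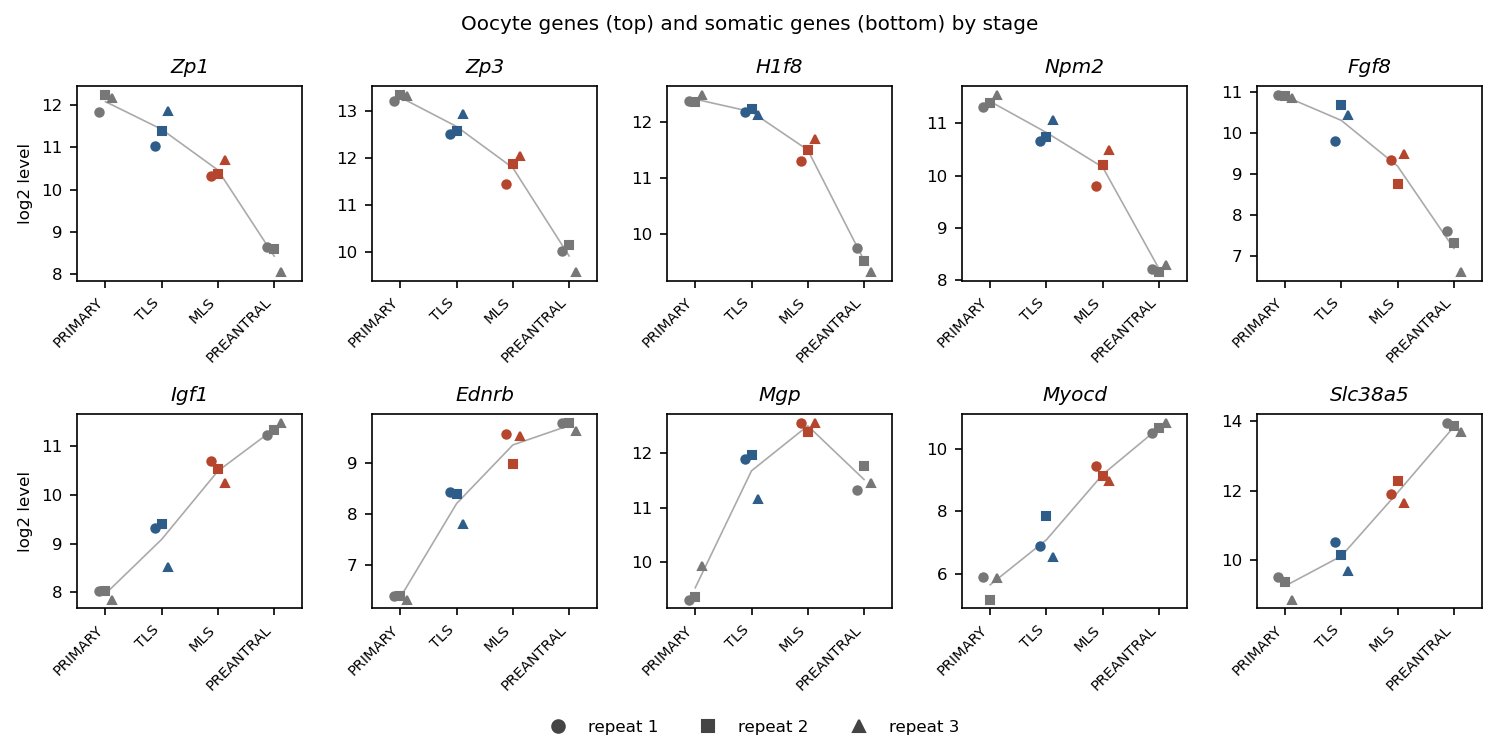
Log2 levels of 5 oocyte genes (top) and 5 genes that rose in MLS (bottom) in PRIMARY, TLS, MLS and PREANTRAL follicles, each point 1 array and the line through the stage means. The oocyte genes step down at each stage, and all but Mgp of the lower row step up at each stage.

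Granulosa cell identity genes gave no calls. None of 20 tested genes passed in limma, and 6 were higher in MLS, while 52.1% of all genes tested were higher. The list median was -0.30 with all arrays and -0.15 without TLS repeat 2. Kitl, the granulosa cell ligand of the oocyte receptor KIT, was at 6.24, 5.65 and 6.55 in MLS and at 7.21, 7.26 and 6.98 in TLS. The groups did not overlap, but the difference of -1.002 did not pass (adjusted p = 0.0685). Several of the genes that define these cells were set by a single TLS array. Amh, which encodes anti-Müllerian hormone, was at 10.19, 10.02 and 10.22 in MLS and at 10.01, 12.51 and 10.84 in TLS, with TLS repeat 2 far above the rest. Foxl2, the transcription factor that maintains granulosa cell fate, was at 6.67, 6.68 and 6.87 in MLS and at 7.05, 9.08 and 6.40 in TLS. With TLS repeat 2 left out, the Foxl2 difference was 0.02 in place of -0.77, and that of Amh was -0.29 in place of -0.98. Ccnd2, the D cyclin through which follicle-stimulating hormone drives granulosa cell division, was at 11.41, 11.70 and 10.74 in MLS and at 9.92, 12.16 and 9.86 in TLS. TLS repeat 2 was the highest of the 6 arrays and the other TLS arrays were the lowest. The difference of 1.403 without it had an adjusted p of 0.0725, against 0.64 and 0.553 with all arrays.

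Inhba, the activin beta-A subunit, was at 9.40, 10.23 and 8.84 in MLS and at 11.95, 12.08 and 9.19 in TLS. TLS repeat 3 lay among the MLS arrays, and the difference of -1.58 passed only when that array was left out (-2.52, adjusted p = 0.00102). PRIMARY and PREANTRAL follicles stood at 7.80 and 13.65. Inha, the shared inhibin alpha subunit, averaged 13.88 ± 0.07 in MLS and 14.19 ± 0.40 in TLS. Inhbb, the beta-B subunit, averaged 11.38 ± 0.51 in MLS and 11.25 ± 0.91 in TLS. Fst, the activin-binding protein follistatin, averaged 11.45 ± 0.40 in MLS and 11.43 ± 0.80 in TLS. These 3 differences were smaller than the spread of the TLS arrays.

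**Figure D3:**
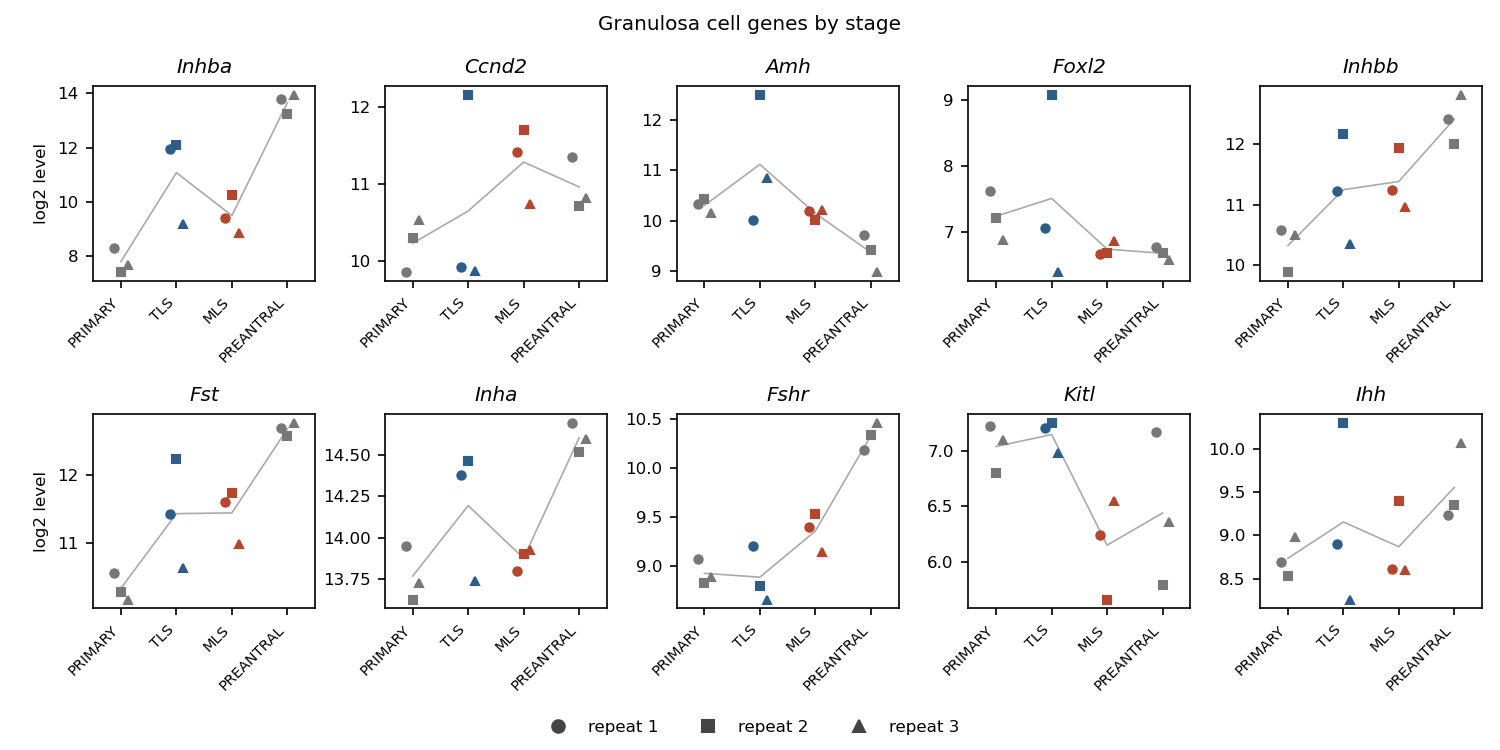
Log2 levels of 10 granulosa cell genes in PRIMARY, TLS, MLS and PREANTRAL follicles, each point 1 array and the line through the stage means. TLS repeat 2 is the highest TLS array for every gene shown but Fshr, and TLS repeat 3 the lowest for every gene shown but Amh.

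Genes of gonadotropin and estrogen response included 2 rises among 10 tested, Igf1 and Ghr, against 1.55% of all genes tested. The list median was 0.08 (0.13 without TLS repeat 2, where 1 passed). Igf1, a granulosa cell growth factor in mice that heightens the response to follicle-stimulating hormone, was at 10.70, 10.53 and 10.24 in MLS and at 9.33, 9.41 and 8.52 in TLS. It rose 2.65-fold without overlap (log2 difference 1.403 ± 0.20 SE, adjusted p = 0.00119), and 2.97-fold without TLS repeat 2. It kept its call without each of the 6 arrays. Its level climbed over the follicle stages, from 7.97 in PRIMARY and 9.09 in TLS to 10.49 in MLS and 11.35 in PREANTRAL follicles. Igf1 was also the only call among 12 genes of the insulin-like growth factor system, whose median was 0.18 (0.08 with undetected genes at their bound, 0.13 without TLS repeat 2). Ghr, the growth hormone receptor, was at 9.44, 9.21 and 8.90 in MLS and at 8.47, 8.20 and 8.68 in TLS, a rise of 1.66-fold (adjusted p = 0.0308). The second Ghr probe differed by -0.04, and the call was lost under scaling to the same median (adjusted p = 0.0793) and without TLS repeat 2 (0.101), MLS repeat 1 (0.166) or MLS repeat 2 (0.082). Fshr, the receptor of follicle-stimulating hormone, averaged 9.36 ± 0.20 in MLS and 8.89 ± 0.29 in TLS, a difference of 0.47 that did not pass (adjusted p = 0.249).

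Transcripts of cells outside the basal lamina were mostly higher in MLS follicles. All 10 tested theca and interstitial genes were higher, with a median of 0.51 (0.68 without TLS repeat 2), and 2 passed against 1.55% of all genes. Ednrb, an endothelin receptor, was at 9.56, 8.99 and 9.52 in MLS and at 8.43, 8.39 and 7.80 in TLS. It rose 2.22-fold without overlap (adjusted p = 0.00484, and 2.37-fold without TLS repeat 2) and kept its call without each of the 6 arrays. Its other probes were higher too but did not pass. They differed by 0.85 (adjusted p = 0.113 over all probes, detected on all 6 arrays) and 0.36 (0.316, detected on 1 array). Mgp, a secreted inhibitor of calcification, was at 12.57, 12.39 and 12.57 in MLS and at 11.90, 11.98 and 11.17 in TLS, a rise of 1.78-fold without overlap (adjusted p = 0.0417). Its call was lost without any of TLS repeat 3 (adjusted p = 0.164), MLS repeat 1 (0.151), MLS repeat 2 (0.0726) or MLS repeat 3 (0.104). Hhip, a hedgehog-binding protein, averaged 6.69 ± 0.10 in MLS and passed only without TLS repeat 2, at a difference of 0.76 (adjusted p = 0.0379) against 0.44 with all arrays. Cyp17a1, the androgen-making enzyme of theca cells, was at 11.69, 11.99 and 9.98 in MLS and at 10.93, 9.58 and 9.65 in TLS. Its arrays overlapped and the difference of 1.17 did not pass (adjusted p = 0.273).

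Hedgehog ligands from granulosa cells are known to recruit theca cells. Among 7 hedgehog pathway genes none passed with all arrays, and the median was 0.05. Leaving out TLS repeat 2 gave a median of 0.28 and 1 call, Hhip. Ihh averaged 8.87 ± 0.46 in MLS and 9.15 ± 1.04 in TLS, and Dhh averaged 10.88 ± 0.29 in MLS and 10.78 ± 0.37 in TLS. Ptch1, their receptor and a target of the pathway, averaged 5.88 ± 0.19 in MLS and 5.58 ± 0.27 in TLS. None of the 3 passed the test. In the 8 tested genes of steroid synthesis, none passed with all arrays and the median was 0.18 (0.13 without TLS repeat 2). Cyp11a1, which makes the first steroid from cholesterol, averaged 7.47 ± 0.12 in MLS and 6.83 ± 0.75 in TLS (adjusted p = 0.316, and 0.0359 at a difference of 1.06 without TLS repeat 1). Hsd17b7, noticed only in the fit without TLS repeat 2, fell there by 0.70 on the log2 scale (adjusted p = 0.0464).

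Markers of endothelium and stroma were mostly higher in MLS follicles as well. Of 14 tested endothelial genes, 13 were higher in MLS, with a median of 0.70 (0.80 without TLS repeat 2). In 10 of them the groups did not overlap, against 9.13% of all genes with MLS above TLS. The test called 1 of the 14, against 1.55% of all genes called up. The mean level of the list was 8.10 to 8.39 on the MLS arrays and 7.41 to 7.84 on the TLS arrays, while Kdr, a defining endothelial receptor, was detected on none of the 6. Pecam1, an adhesion protein of endothelial cells, was at 7.15, 7.53 and 7.54 in MLS and at 6.62, 6.53 and 6.48 in TLS. It rose 1.82-fold (adjusted p = 0.00423) and kept its call without each of the 6 arrays. The rise was 1.45-fold without background correction and 1.26-fold in the authors' values. A second Pecam1 probe, also detected on all 6 arrays, rose by 0.56 on the log2 scale and did not pass (adjusted p = 0.293 over all probes). Emcn and Tek, noticed only in the fit without TLS repeat 2, rose there by 0.84 (adjusted p = 0.0487) and 0.77 (0.0467). Of 18 genes of stroma and smooth muscle, 17 were higher, 8 did not overlap and none passed with all arrays, with a median of 0.59 (0.74 without TLS repeat 2). Calls with all arrays depended on scaling and background correction. Scaling to the same median gave 3 for stroma and 3 for endothelium, no background correction gave 2 and 5, and the authors' values gave 1 and 4. The mean level of the stroma list was 8.94 to 9.44 on the MLS arrays and 8.30 to 8.95 on the TLS arrays, with an overlap. Of its members, Cnn1 and Postn were detected on none of the arrays. Actg2, a smooth muscle actin, differed most, at 10.12, 9.33 and 9.95 in MLS and at 9.04, 8.40 and 7.62 in TLS (difference 1.45, adjusted p = 0.0873). Thy1 and Tagln, again noticed only without TLS repeat 2, rose there by 1.12 (adjusted p = 0.0378) and 1.03 (0.0209). The part of these markers in the rises of Myocd, Ednrb and Mgp, or in the lower oocyte levels, was not tested.

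Other cell types showed little, beside 1.55% of all genes tested called up. Among 11 leukocyte genes none passed and the median was 0.09 (0.11 without TLS repeat 2), with Ptprc and Fcer1g undetected on all 6 arrays and a mean level of 5.61 to 5.78 in MLS against 5.42 to 5.69 in TLS. Lyz1, a lysozyme, came closest, at 8.41 ± 0.17 in MLS and 7.46 ± 0.34 in TLS (adjusted p just above the threshold at 0.05003). Among 4 erythroid genes, Alas2, the erythroid enzyme of heme synthesis, was called higher near the limit of detection, with a log2 difference of 0.93 and 1 TLS array not above background (adjusted p = 0.0487). The call was lost without any of TLS repeat 1 (adjusted p = 0.126), TLS repeat 2 (0.0526), MLS repeat 1 (0.18) or MLS repeat 2 (0.154). It was also lost under scaling to the same median (0.131), without background correction (0.173) and in the authors' values (0.333), and the list had a median of 0.02. Among 10 genes of the ovarian surface epithelium, the median was 0.06 (0.04 without TLS repeat 2) and Upk1b, a uroplakin, rose. It was at 6.38, 6.25 and 6.27 in MLS and at 5.49, 5.17 and 5.55 in TLS, 1.86-fold higher without overlap (adjusted p = 0.00319), and kept its call without each of the 6 arrays. The size of the Upk1b rise depended on processing. It was 1.30-fold without background correction (adjusted p = 0.0218) and 1.14-fold in the authors' values (0.0251).

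**Figure D4:**
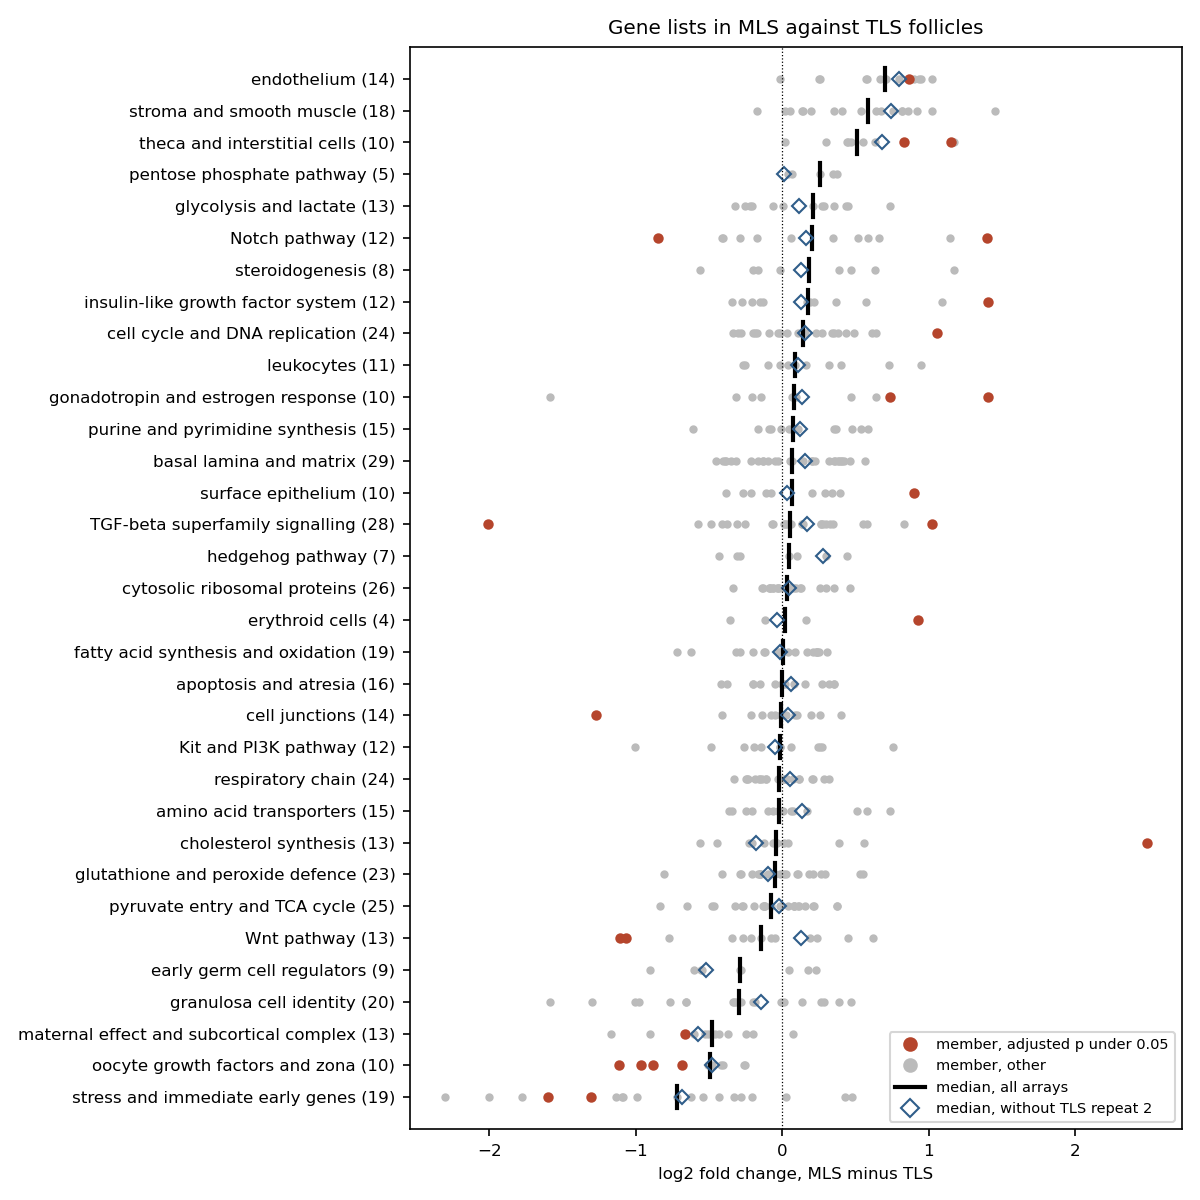
Log2 differences, MLS minus TLS, of the tested members of 33 gene lists (number tested in brackets), with members past the threshold in red, the list median with all arrays as a bar and without TLS repeat 2 as a diamond. Endothelium, stroma and theca lie highest, and oocyte genes and stress and immediate early genes lowest.

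Among signalling pathways the calls were few and went both ways, beside 1.55% of all genes tested called up and 1.32% called down. In 28 genes of TGF-beta superfamily signalling the median was 0.06, with 1 rise and 1 fall, and 0.17 without TLS repeat 2, with 1 rise. Smad6, an inhibitor of the pathway, was at 6.63, 6.55 and 6.65 in MLS and at 5.22, 6.01 and 5.53 in TLS, with 1 TLS array not above background (log2 difference 1.02, adjusted p = 0.0295). The call was lost under scaling to the same median (adjusted p = 0.0735), without background correction (0.0593) and in the authors' values (0.0962). Its other probe, detected on 2 of the 6 arrays, differed by -0.02. Smad2, which carries activin signals, was lower by a log2 difference of -2.004 (adjusted p = 0.0329), but its MLS arrays ran from 4.41 to 7.65, against 8.02 to 8.39 in TLS. The lowest, MLS repeat 1, was not above background, and the difference was -1.12 without it and -2.72 without MLS repeat 2. In 12 Notch genes the median was 0.20 (0.16 without TLS repeat 2). Heyl, a Notch target of vascular smooth muscle, was at 8.27, 7.66 and 7.24 in MLS and at 6.48, 5.74 and 6.74 in TLS, 2.64-fold higher (adjusted p = 0.0127, and 0.0852 without MLS repeat 1). Hes1, a Notch target repressor, was at 8.61, 8.14 and 8.88 in MLS and at 9.004, 9.78 and 9.40 in TLS, 1.80-fold lower (adjusted p = 0.0386).

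In 13 Wnt genes the median was -0.14, and 0.13 without TLS repeat 2. Wnt4, a Wnt ligand of granulosa cells, was at 9.68, 9.66 and 10.02 in MLS and at 10.70, 11.69 and 10.30 in TLS. It was 2.15-fold lower without overlap (adjusted p = 0.0468). Axin2, a target of canonical Wnt signalling, was at 9.13, 8.82 and 9.36 in MLS and at 9.52, 10.78 and 10.20 in TLS, 2.09-fold lower without overlap (adjusted p = 0.0319). Both had their highest array in TLS repeat 2. Under scaling to the same median the adjusted p was 0.103 for Wnt4, 0.117 for Axin2 and 0.149 for Hes1, and in the authors' values 0.0554 for Wnt4 and 0.0529 for Hes1. Without TLS repeat 2 the adjusted p was 0.158 for Wnt4, 0.116 for Axin2, 0.132 for Hes1 and 0.0834 for Smad2. Without MLS repeat 1 it was 0.166 for Wnt4, 0.105 for Axin2, 0.107 for Hes1, 0.0899 for Smad2 and 0.103 for Smad6. Without MLS repeat 2 it was 0.127 for Wnt4, 0.118 for Axin2, 0.159 for Hes1 and 0.0657 for Smad6. Without MLS repeat 3 it was 0.0655 for Wnt4, 0.0551 for Smad2 and 0.0746 for Smad6. Without TLS repeat 3 it was 0.0849 for Axin2, 0.0913 for Hes1, 0.0809 for Smad2 and 0.0786 for Smad6, and without TLS repeat 1 it was 0.0751 for Smad6. Kitl was the gene that moved most among 12 genes of the Kit and PI3K pathway, where none passed and the median was -0.01 (-0.05 without TLS repeat 2).

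Genes of division, adhesion and matrix gave few calls. Of 24 cell cycle genes, 15 were higher, while 52.1% of all genes tested were higher. The test called 1 of them, against 1.55% of all genes called up. The list median was 0.14, and 0.16 without TLS repeat 2. Ccnd1, a D cyclin, was at 8.77, 8.71 and 8.74 in MLS and at 8.10, 7.44 and 7.49 in TLS. It rose 2.08-fold without overlap (adjusted p = 0.0161), with the call lost without TLS repeat 2 (0.0535), TLS repeat 3 (0.063) or MLS repeat 1 (0.0713). Of 14 cell junction genes 1 fell, against 1.32% of all genes tested, namely Cldn11, a tight junction claudin. It was at 9.08, 8.91 and 9.26 in MLS and at 9.69, 10.16 and 11.20 in TLS, 2.41-fold lower without overlap (adjusted p = 0.0216). That call was lost under scaling to the same median (adjusted p = 0.0594) and without TLS repeat 3 (0.0669), MLS repeat 1 (0.0797) or MLS repeat 2 (0.0721). The median of the junction list was -0.01 (0.04 without TLS repeat 2). The connexins that couple granulosa cells with one another and with the oocyte differed little. Gja1 averaged 14.64 ± 0.14 in MLS and 14.54 ± 0.07 in TLS (adjusted p = 0.767), and Gja4 averaged 10.56 ± 0.24 in MLS and 10.97 ± 0.38 in TLS (adjusted p = 0.332). None of 29 basal lamina and matrix genes passed, and their median was 0.07 (0.16 without TLS repeat 2). Timp3, an inhibitor of matrix proteases, moved most, at 9.54 ± 0.11 in MLS and 8.97 ± 0.38 in TLS (adjusted p = 0.1, and 0.0329 without TLS repeat 1).

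Metabolic and housekeeping lists stood near the median of all genes. No member passed in glycolysis and lactate (13 genes, median 0.21), pyruvate entry and the TCA cycle (25, -0.07), the respiratory chain (24, -0.02) or the pentose phosphate pathway (5, 0.26). None passed either in purine and pyrimidine synthesis (15 genes, median 0.07), fatty acid synthesis and oxidation (19, 0.01), glutathione and peroxide defence (23, -0.05) or amino acid transporters (15, -0.02). Apoptosis and atresia (16 genes, median 0.00) and cytosolic ribosomal proteins (26, 0.03) gave none as well. With undetected genes at their bound the median of glycolysis was 0.11. Without TLS repeat 2 it was 0.11 and that of the pentose phosphate pathway 0.02. In cholesterol synthesis (13 genes, median -0.04), Msmo1 was the only rise with all arrays. The large rise of Msmo1 was thus not shared by another tested gene of its pathway. Slc38a5, which rose, was not a member of the transporter list. Pfkp, a phosphofructokinase, differed most in glycolysis (0.74, adjusted p = 0.0884). Gsta4, a glutathione transferase, differed most in its list (-0.81, adjusted p = 0.0563), and Slc38a3, a glutamine transporter, among transporters (0.74, adjusted p = 0.187). Pdk4, a kinase that shuts off pyruvate dehydrogenase, was at 5.93, 7.88 and 6.70 in MLS and at 7.20, 7.40 and 8.40 in TLS, with overlapping groups (adjusted p = 0.332).

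Stress and immediate early genes, which cells switch on within minutes of handling or signals, were lower on MLS repeats 1 and 3 and not on MLS repeat 2. Of 19 tested genes, 16 were lower in MLS, while 52.1% of all genes tested were higher. In the list 2 fell past the threshold, against 1.32% of all genes, and the median was -0.72 (-0.68 without TLS repeat 2). The mean level of the list was 8.57, 9.50 and 8.04 on MLS repeats 1 to 3 and 9.45, 9.55 and 9.56 on TLS repeats 1 to 3. MLS repeat 2 thus stood with the TLS arrays. It was the highest MLS array for 14 of the 19 genes, and its median excess over the other MLS arrays was 1.02, beside -0.01 over all genes. Atf3, a stress-induced transcription factor, was at 4.80, 8.23 and 4.54 in MLS and at 8.02, 7.64 and 7.92 in TLS. Fosb, a partner of Jun in AP-1, was at 8.42, 11.45 and 8.65 in MLS and at 11.13, 12.78 and 11.51 in TLS. Neither passed (adjusted p = 0.112 and 0.0741). MLS repeat 2 lay above every TLS array for Atf3 and among them for Fosb. Without MLS repeat 2 the log2 differences were -3.18 for Atf3 (adjusted p = 0.000468) and -3.27 for Fosb (0.00611). These 2 genes were chosen after their values were seen.

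The 2 calls of the list were Ier3 and Klf6. Ier3, which limits cell death after stress, was at 10.47, 11.16 and 9.80 in MLS and at 11.67, 11.47 and 13.07 in TLS, 3.02-fold lower (adjusted p = 0.0216). Klf6, a zinc finger factor, was at 10.70, 11.83 and 10.71 in MLS and at 11.78, 12.88 and 12.49 in TLS, 2.47-fold lower with an overlap (adjusted p = 0.0277). A second Klf6 probe, detected on all 6 arrays, differed by -0.81 and did not pass (adjusted p = 0.238 over all probes). Under scaling to the same median the adjusted p was 0.0537 for Ier3 and 0.127 for Klf6. The call of Ier3 was lost without MLS repeat 1 (adjusted p = 0.0796), MLS repeat 3 (0.0856) or TLS repeat 3 (0.0738). That of Klf6 was lost without TLS repeat 2 (adjusted p = 0.0951), TLS repeat 3 (0.0786), MLS repeat 1 (0.145) or MLS repeat 3 (0.102). Csrnp1 ran the same way among the MLS arrays. The part of handling time or RNA quality in these values was not tested.

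**Figure D5:**
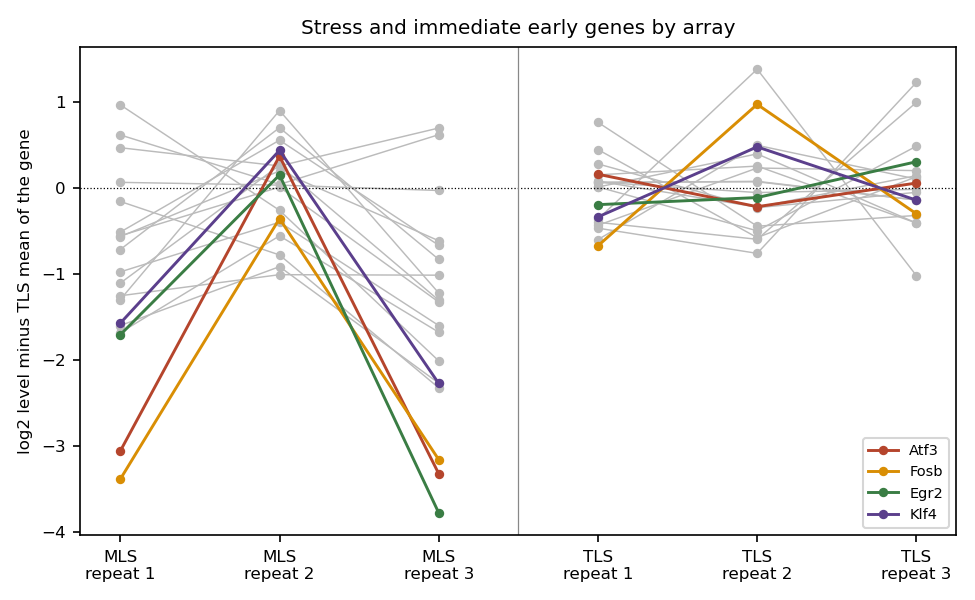
Log2 level minus the TLS mean of the gene for 19 stress and immediate early genes, each line 1 gene over the 3 MLS and the 3 TLS arrays. Atf3, Fosb, Egr2 and Klf4 are low on MLS repeats 1 and 3 and close to the TLS arrays on MLS repeat 2.

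The TLS arrays differed among themselves more than the MLS arrays did. Counting genes more than 1 log2 unit from the mean of the other 2 arrays of the stage, TLS repeat 2 had 362 above and 464 below. TLS repeat 1 had 154 above and 204 below and TLS repeat 3 had 189 above and 111 below, while the MLS arrays had 25 to 60 in either direction. The list medians of these deviations also differed between the TLS arrays. They were not tested, and the lists named are a selection. On TLS repeat 2 the granulosa list was 0.44 above the other TLS arrays, Wnt genes 0.55 above and hedgehog genes 0.68 above, while early germ cell regulators were 0.32 below. On that array TGF-beta genes were also 0.37 above, while pentose phosphate genes were 0.48 below and surface epithelium genes 0.35 below. On TLS repeat 3 the theca list was 0.69 below, stroma 0.61 below, endothelium 0.45 below and granulosa genes 0.44 below, while maternal effect genes were 0.46 above.

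Single genes showed the same spread. Purb, a purine-rich element binding protein, was at 7.75, 6.84 and 7.15 in MLS and at 7.15, 10.13 and 7.35 in TLS. Zfp395, a zinc finger gene, was at 6.76, 6.51 and 6.14 in MLS and at 4.94, 8.08 and 5.91 in TLS. In both, TLS repeat 2 was above every other array. Enpp5, an ectonucleotidase family member, was at 9.11, 9.56 and 9.24 in MLS and at 5.59, 8.95 and 9.17 in TLS, so that repeat 1 alone was low. Tpmt, which methylates thiopurines, was at 5.54, 5.35 and 4.76 in MLS and at 5.599, 4.81 and 8.55 in TLS, with repeat 3 alone high. Xdh, which makes uric acid, was at 4.97, 4.58 and 4.61 in MLS, where no array detected it, and at 7.81, 7.88 and 4.87 in TLS. None of these 5 passed with all arrays. Averaged over the arrays of a stage, the correlation across genes of TLS repeat 1 was 0.979 to MLS arrays and 0.972 to the rest of its own stage. That of TLS repeat 3 was 0.980 to PRIMARY arrays, 0.974 to MLS and 0.972 to the rest of its own stage. For TLS repeat 2 the averages were 0.961 to MLS, 0.954 to PRIMARY and 0.964 to its own stage.

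The stages on either side were set against each other by their means, which share no array with the MLS and TLS means. Their arrays did enter the spread and the detection filter behind the calls. Of the 154 genes that rose in MLS over TLS, 94.2% were also higher in PREANTRAL than in PRIMARY follicles, against 53.7% of all genes tested, with a median log2 difference of 1.09. Of the 131 genes that fell, 86.3% were lower in PREANTRAL than in PRIMARY follicles, against 46.3% of all genes, with a median of -1.68. Without PREANTRAL repeat 2, whose labels conflict, the shares were 94.8% and 87.0%, and without PRIMARY repeat 3 they were 92.2% and 86.3%. Pebp4, Msmo1, Myocd and Slc38a5 were among the genes higher in PREANTRAL follicles. Spink2 and Csrp1 ran the other way, with Spink2 at 7.81 in PRIMARY and 6.16 in PREANTRAL and Csrp1 at 5.55 in PRIMARY and 8.57 in PREANTRAL follicles. These 2 were chosen after their values were seen.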

How the data were processed

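The first table deposited by the authors holds a probe's intensity on every array, which is the average bead signal per the file headers, before any background correction or normalisation. Beside it, per the file headers, stands a detection p-value against that array's negative control beads. A second deposited table holds the authors' log2 values, made with limma per the submitters' processing notes. Its normalization and probe filter are not given in the sources used here, its column medians were 7.71 to 7.74, and it served as an alternative. Here the function neqc (limma 3.58.1, R 4.3.3) corrected the background and applied quantile normalisation (offset 16, negative controls inferred from the detection p). Of 25697 probes, 21857 had 1 gene symbol in the platform annotation. Probes detected at p under 0.05 on at least 3 of 18 arrays were kept, and the probe with the highest mean stood for each of 9921 genes.

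A linear model in limma gave each of 6 stages its own mean over 18 arrays (12 residual degrees of freedom), and MLS minus TLS was tested two-sided with Benjamini-Hochberg adjustment at 0.05. The antral stage was left out because its mice received hormone and 2 of its arrays share a column name. Of the per-sample columns, 6 of signals and detection p-values and 3 of the authors' log2 values were not used. A gene undetected on all arrays of a stage has only a bound, for which each array's lowest detected level stands in. The script was tested on simulated data. With 3 arrays per stage, their number limits the precision.

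Genes were named by rule. The first were the 12 largest rises and the 12 largest falls called in both fits and detected on all arrays of the higher stage. Next came called members of 33 lists (up to 4 a list, otherwise the member that moved most) and landmark follicle genes. The last were the 3 genes farthest above and below on each TLS array. Members of the comparison and lists were chosen with earlier results of these data known. Of 666 list memberships, 560 were on the array and 501 were tested. Kit, Cyp19a1 and Lhcgr were not measured here, and Zp2, Star and Gli1 were below detection.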

Additional observations from a re-analysis of the deposited data

How the results depend on the processing

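The 285 calls with all arrays (54.0% of them up) became 183 with scaling to the same median (71.0% up), 170 with array weights, 10 with the spread of the 6 arrays alone and 431 without PMD3 repeat 2. Without TLS repeat 2 the 225 calls (55.6% up) became 208 with scaling to the same median (85.6% up, with all genes shifted by 0.14 on the log2 scale), 114 with array weights, 4 with the spread of the remaining MLS and TLS arrays alone and 376 without PMD3 repeat 2. Leaving out 1 MLS or TLS array gave 87 to 450 calls in the first comparison and 82 to 366 in the second, where leaving out TLS repeat 3 leaves a lone TLS array assumed to vary like the other groups. No background correction (307 and 259), the authors' values (285 and 225), no detection filter (223 and 181), a detection p under 0.01 (292 and 238), the probe of largest variance (264 and 213) and leaving out PREANTRAL repeat 2 (261 and 200) stayed within 1.5 times. Of the authors' 285 calls, 209 were among those reported. The choices without PREANTRAL repeat 2, PMD3 repeat 2 or PRIMARY repeat 3, those for Atf3 and Fosb, and all second settings without TLS repeat 2 were added after seeing the data. The replicate block gave 348 calls (207 without TLS repeat 2). The deviations of same-numbered MLS and TLS arrays correlated at 0.124, 0.196 and -0.018. Those of differently numbered arrays correlated at -0.229 to 0.13. With so few arrays, these values cannot decide whether the numbers pair the arrays. Of the 24 genes named by size, 9 kept their call under all 17 alternatives, 15 lost it under at least 1, and none turned direction. The cause of these changes was not tested, beyond the fewer residual degrees of freedom (4) when the 6 arrays stand alone.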

Other observations

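Sema6b, a transmembrane semaphorin known for axon guidance, was the only gene outside the naming rule among the 10 that passed when the spread came from the 6 arrays alone, and it was chosen after its values were seen. It was at 6.97, 6.66 and 6.78 in MLS and at 5.61, 5.27 and 5.38 in TLS, 2.61-fold higher (adjusted p = 0.00119 with the spread of 18 arrays and 0.0466 with that of 6). The others of the 10 were Pebp4, Csrp1, Ank1, Rhox8, Ccng2, Btn1a1, Pnliprp2, Mtus2 and Slc38a5.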
